A study of Mus musculus with 8 samples.

Results

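Under glucose starvation, 17 genes were higher in fibroblasts carrying wild-type Pontin and lower in fibroblasts carrying an arginine mutant of Pontin. They were chosen by their values: the group mean of log2(CPM + 1) was at least 0.3 higher in starved than in normal WT libraries, at least 0.3 lower in starved than in normal RA libraries, and the mean CPM over all 8 libraries was at least 5. CPM here is the read count of a gene relative to a library size that the depositors had scaled, and a difference of 1 on the log2(CPM + 1) scale is close to a doubling for abundant genes and understates the change of low ones. The 17 genes came from 12099 genes over the CPM floor and 49492 rows of the table. The same thresholds placed 2632 genes as higher in both genotypes, 2648 as lower in both, and 185 as lower in WT and higher in RA. The opposite directions of the 17 genes in the 2 genotypes are therefore set by the selection and are given below as a description, with no test.

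The libraries came from mouse embryonic fibroblasts that carried floxed Pontin alleles and had been made into lines by serial passage. A lentivirus supplied Flag-tagged Pontin, either WT or RA, in which 2 arginines were replaced by alanine. Cells with the virus were selected with hygromycin, and Cre removed the endogenous gene in both genotypes. Cells were kept in normal medium with serum or starved in glucose-free medium with dialyzed serum, and the length of the starvation is not given in the sources used here. Each of the 4 groups (WT and RA, each normal and starved) had 2 libraries of polyadenylated RNA. Nothing in the labels says that the 2 were separate cultures, so the errors measure only the spread between these libraries, which may be technical. Each genotype was 1 stably expressing line, and the effect of the Pontin form and a difference between the lines cannot be told apart.

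Totals ran from 43205841 to 56363034 reads per library. The most that a count of 0 allows is 3 reads, which corresponded to 0.0548 to 0.069 CPM, an error of counting only. The read counts of Slco4a1, Csrnp1, Mex3d, Cep97, Ccnj and Sowahc were even in every library, so both mates of a pair may have been counted. If so, independent fragments were fewer than the reads given here, and this bound is too low. Of 11 fibroblast markers, 10 were at 1 CPM or more in every library, while 9 of 12 leukocyte markers (among them Ptprc and Tyrobp) and all 7 skeletal muscle markers were under 1 CPM in every library. The other 3 leukocyte markers were at 1 CPM or more in every library. The sum of the 12 ran from 22.0 to 26.4 CPM over all libraries. The sum of 8 endothelial markers moved with starvation, from 2.82 to 3.74 CPM in normal WT to 23.0 to 24.1 in starved WT, and from 2.52 to 3.75 in normal RA to 9.23 to 10.1 in starved RA, with 5 of the 8 (among them Pecam1 and Cdh5) under 1 CPM in every library. The sum of 7 neural markers, 3 of them at 1 CPM or more and 4 (Sox10, Sox2, Gfap and Rbfox3) under 1 CPM in every library, went from 354 to 357 CPM in normal WT to 75.2 to 79.2 in starved WT, and from 349 to 349.8 in normal RA to 167 to 169.9 in starved RA. The sum of 7 epithelial markers stayed between 1.48 and 3.68 CPM in all libraries. The sum of the 11 fibroblast markers was 10905 to 11009.5 CPM in normal and 5571 to 5656 in starved WT, and 10842 to 11187 in normal and 7362 to 7374 in starved RA, and the part of these shifts in the results was not tested. In bulk RNA, fewer cells of a type and less RNA per cell cannot be told apart. Ruvbl1, the gene of Pontin, read 28.4 and 27.6 CPM with glucose and 27.9 and 28.4 CPM without it in WT, against 36.8 and 32.0 CPM with glucose and 45.0 and 42.9 CPM without it in RA. It was higher in RA than in WT in normal medium by 0.29 ± 0.0646 (SE, adjusted p = 0.00946, limma) and under starvation by 0.62 ± 0.0646 (adjusted p = 2.94e-07), and these reads do not separate the virus-borne from the endogenous gene.

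Pontin is an AAA+ ATPase that works with its partner Reptin in chromatin-remodelling and acetyltransferase complexes, where it helps to open chromatin and to exchange histones at genes. Cells without glucose cut back growth and division, turn on autophagy and the lysosome, and activate the unfolded protein response, since the sugar chains of secreted proteins are built from glucose. The 17 genes have varied functions. They include an oxidoreductase of the endoplasmic reticulum (P4hb), an ER membrane protein (Tbl2), a DNA repair enzyme (Ung), a small GTPase of the Golgi and endosomes (Rab31), nuclear regulators (Cxxc5, Csrnp1), an RNA-binding protein (Mex3d), a transporter (Slco4a1) and 2 pseudogenes. None of the 813 genes on 26 pathway lists, which cover autophagy, the lysosome, stress responses, metabolism, growth signalling and chromatin, was among the 17. The 17 are 0.141% of the genes over the CPM floor, which 756 of the listed genes passed, and nothing is read from the count of 0. The lists are not complete: the ER list holds Pdia3, Pdia4 and Pdia6 but not P4hb, and the membrane trafficking list lacks Rab31.

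The start-site regions are described as a property that the rule did not use. The genes moved alike because they were chosen for it, and shared regulation was not tested. RefSeq (GRCm38.p6) gave windows of 250 bases before to 50 bases after a start for 13 of the 17 genes, 18 windows in all, and 4 are printed 5′ to 3′ on the gene's strand. Ung is shown because it lay deepest inside the thresholds, and P4hb because it was by far the most abundant. Slco4a1 and Rab31 are shown from the 7 genes that stayed inside the thresholds under every scaling, pseudocount and left-out library tried. Cntnap5b and Dydc2 also belong to those 7 and had windows, which are not shown. Capitals mark the SP1 box, GGGGCGGGG, the CCAAT box and the ETS element, CCGGAAG, or the reverse complement of one of them. The windows are chr5:114130185-114130484 on the plus strand for Ung, chr2:180455995-180456294 on the plus strand for Slco4a1, chr17:65772703-65773002 on the minus strand for Rab31, and chr11:120573204-120573503 on the minus strand for P4hb.
Ung: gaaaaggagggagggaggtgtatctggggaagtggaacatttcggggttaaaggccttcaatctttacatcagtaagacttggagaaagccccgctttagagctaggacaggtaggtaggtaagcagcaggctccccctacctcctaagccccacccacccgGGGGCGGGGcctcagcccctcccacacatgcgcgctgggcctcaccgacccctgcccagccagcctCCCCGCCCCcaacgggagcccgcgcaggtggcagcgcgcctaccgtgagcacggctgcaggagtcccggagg
Slco4a1: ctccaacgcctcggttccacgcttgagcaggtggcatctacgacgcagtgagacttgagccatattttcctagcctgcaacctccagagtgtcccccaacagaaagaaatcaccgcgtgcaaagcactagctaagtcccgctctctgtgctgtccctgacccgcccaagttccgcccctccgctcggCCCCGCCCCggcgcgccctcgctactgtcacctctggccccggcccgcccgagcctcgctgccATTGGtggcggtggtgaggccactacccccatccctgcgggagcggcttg
Rab31: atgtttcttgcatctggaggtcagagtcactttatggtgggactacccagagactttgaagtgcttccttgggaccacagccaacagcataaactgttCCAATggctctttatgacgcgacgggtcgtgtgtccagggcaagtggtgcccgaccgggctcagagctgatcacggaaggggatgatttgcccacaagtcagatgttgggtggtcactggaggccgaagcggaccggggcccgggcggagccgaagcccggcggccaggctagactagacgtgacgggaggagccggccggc
P4hb: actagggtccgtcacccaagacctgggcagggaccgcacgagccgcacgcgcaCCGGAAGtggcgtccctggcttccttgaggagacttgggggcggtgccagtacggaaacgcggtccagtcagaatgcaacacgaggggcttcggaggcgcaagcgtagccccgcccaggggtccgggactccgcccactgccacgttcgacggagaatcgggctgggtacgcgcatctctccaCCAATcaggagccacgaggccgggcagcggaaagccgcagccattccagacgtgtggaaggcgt

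CCAAT or its reverse complement stood in 9 of the 18 windows (Ccnj, Cep97, Cntnap5b, Csrnp1, Dydc2, P4hb, Rab31, Rec114 and Slco4a1), against 37.4% of all RefSeq windows of this length and 38.0% of windows of genes over the CPM floor. GGGGCGGGG, searched like all the motifs on both strands, stood in 4 windows (Csrnp1, Slco4a1, Tbl2, Ung), against 11.4% and 21.6%. CCGGAAG stood in 3 windows (Dydc2, P4hb, Sowahc), against 8.86% and 18.6%. TATAAA stood in 2 (Cep97, Tgm4), against 13.6% and 6.57%, and in Tgm4 it began 30 bases before the start. The forkhead letters GTAAACA stood in 0 of the 18, against 3.65% of all windows and 2.3% over the floor, and CACGTG stood in 1, Rec114, against 7.15% and 10.2%. No test was run on these counts. The ratio of observed to expected CpG had a median of 0.656 over the 18 windows, against 0.772 for windows of genes over the floor. It was at least 0.6 in 10 windows (55.6%), against 72.6%. Csrnp1, Slco4a1 and Dydc2 had more than 1 window each, and every window was counted. The ratio ran from 0.274 to 1.0 for Csrnp1, and was 0.789 and 0.172 for Slco4a1 and 0.5 and 0.0 for Dydc2. In the windows shown it was 0.511 for Ung, 0.789 for Slco4a1, 0.714 for Rab31 and 0.923 for P4hb.

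In linear terms the changes were modest. The ratio of the starved to the normal mean CPM ran from 1.24 (Gm7993) to 1.9 (Ung) in WT and from 0.619 (Cxxc5) to 0.8 (P4hb) in RA. On the log2(CPM + 1) scale the median difference over the 17 genes was 0.51 in WT and -0.45 in RA, beside medians of 0.03 and 0.01 over all genes over the floor. All 17 passed an adjusted p of 0.05 in the limma fit as higher under starvation in WT, where 39.3% of all tested genes did, and all 17 as lower in RA, where 33.7% did. All 17 also passed for the difference between the 2 responses (RA minus WT), against 26.1% of tested genes with a lower response in RA. The rule used these contrasts, and nothing is read from the counts.

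**Figure D1:**
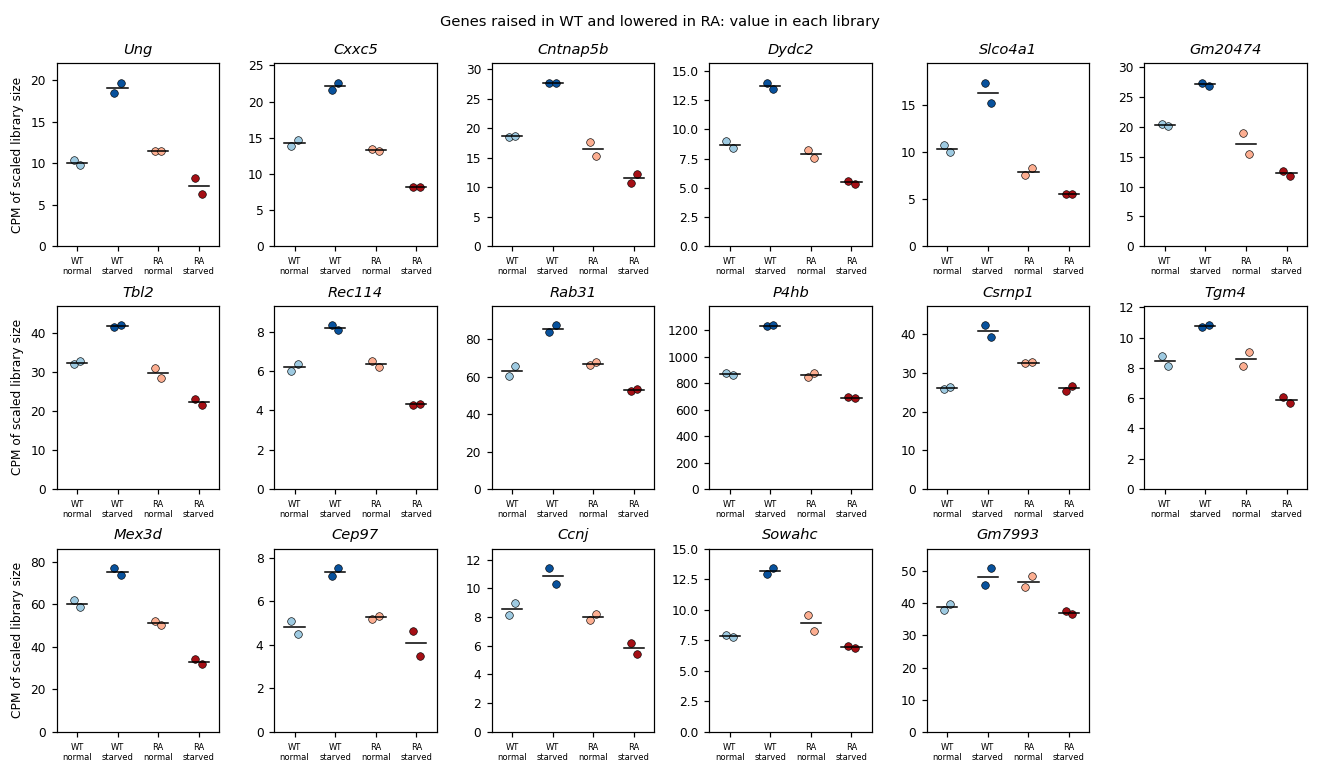
CPM of scaled library size (vertical axes, linear, from 0) for each of the 17 genes in the 8 libraries, by genotype and medium. Points are libraries (n = 2 per group) and lines are group means, and starved WT stood above all other libraries in 16 genes while starved RA stood below all others in 15, orders that the choice of genes favours.

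P4hb encodes protein disulfide isomerase, which forms and reshuffles disulfide bonds in the endoplasmic reticulum and is also the beta subunit of collagen prolyl 4-hydroxylase. It was read at 873 and 861 CPM with glucose and 1232 and 1236 CPM without it in WT, against 848 and 876 CPM with glucose and 694 and 685 CPM without it in RA. The normal libraries of the genotypes overlapped, and the starved ones stood on either side of them. The difference was 0.51 in WT and -0.32 in RA, each with an SE of 0.038. P4hb had 33197 to 67663 reads per library, the most of the 17, and the highest level per length, a mean of 319 CPM per kb of exon. The gene lies at chr11:120560298-120573253 on the minus strand (GRCm38).

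None of 11 other protein disulfide isomerases and oxidases was among the 17, which are 0.141% of the genes over the CPM floor. Nothing is read from this absence. Of the 11, 7 were called higher and 2 lower under starvation in WT, and 6 were called higher and 2 lower in RA. Across all tested genes 39.2% were called lower in WT and 35.0% higher in RA. Pdia3, which folds glycoproteins, read 1003 and 1038 CPM with glucose and 2504 and 2649 CPM without it in WT, against 1002 and 1043 CPM with glucose and 1377 and 1359 CPM without it in RA. Pdia3 thus rose in WT by 1.33 ± 0.0439 (SE, adjusted p = 2.24e-14, limma) and in RA by 0.42 ± 0.0439 (adjusted p = 2.25e-07). The WT and RA differences were 2.04 and 1.28 for Pdia4, and 1.33 and 0.51 for Pdia6. Ero1l and Ero1lb, the oxidases that recharge the isomerases, rose still more, Ero1l by 3.2 in WT against 2.69 in RA and Ero1lb by 3.28 against 1.7.

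The difference between the 2 responses could be tested in the relatives, which the rule did not choose. The RA response was lower than the WT response in 9 of the 11 relatives and higher in 1 (Tmx3), beside 26.1% and 24.5% of all tested genes. For Pdia3 the difference was -0.91 ± 0.0621 (adjusted p = 3.45e-09), for Pdia6 -0.82 ± 0.056 (adjusted p = 3.79e-09). For P4hb it was -0.83, a sign that the rule fixed. Tmx1, a transmembrane isomerase, came nearest to the pattern, with 0.31 in WT (adjusted p = 4.08e-05) and -0.1 in RA (adjusted p = 0.111). Txndc5 fell in both genotypes (-0.29 in WT, -0.62 in RA). Among 8 collagen hydroxylases and collagen chaperones, the catalytic alpha subunits that pair with P4hb diverged. P4ha1 rose (1.15 in WT, 0.53 in RA) and so did P4ha2 (0.88 and 0.51), while P4ha3 fell (-1.62 and -0.34). The 11 families of relatives in this and the following paragraphs were drawn up by family name after the 17 genes were known.

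**Figure D2:**
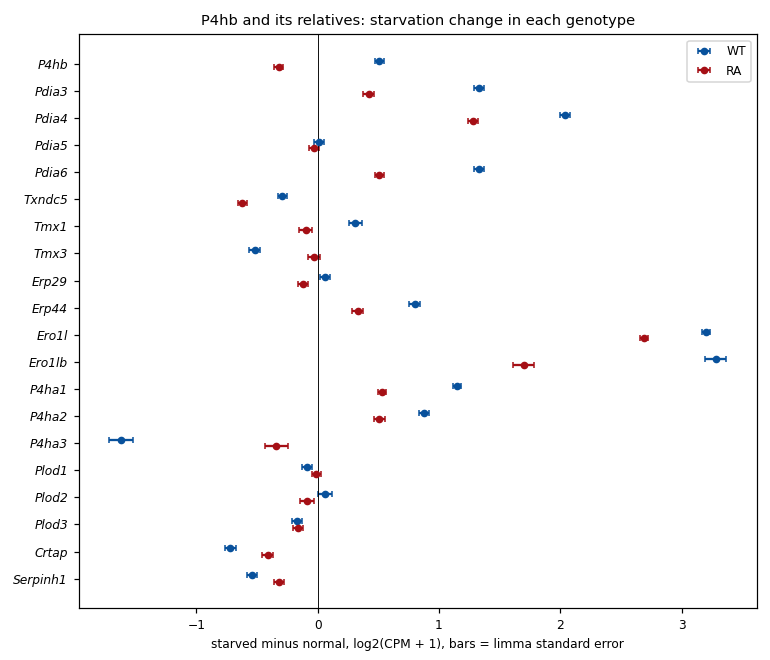
Starved minus normal log2(CPM + 1) in WT and in RA (horizontal axis) for P4hb and 19 relatives, with limma standard errors (n = 2 libraries per group). P4hb is at 0.51 in WT and -0.32 in RA, while Pdia3, Pdia4, Pdia6, Erp44, Ero1l, Ero1lb, P4ha1 and P4ha2 lie to the right of 0 in both.

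Tbl2, a WD-repeat protein anchored in the ER membrane, read 31.9 and 32.8 CPM with glucose and 41.6 and 41.9 CPM without it in WT, against 30.9 and 28.5 CPM with glucose and 23.0 and 21.5 CPM without it in RA. Its 4 starved libraries flanked the 4 normal ones without overlap, with differences of 0.36 in WT and -0.4 in RA (SE 0.0606 for each genotype difference). The wider set of ER genes did otherwise: of 25 tested ER chaperones and ER-associated degradation genes, 24 were called higher in WT and 23 in RA (39.3% and 35.0% of tested genes), with median differences of 1.65 and 1.06. Hspa5, the main ER chaperone, rose by 1.65 in WT (adjusted p = 1.51e-15, limma) and by 1.53 in RA (adjusted p = 1.29e-14). The RA response was lower in 20 of the 25, against 26.1% of tested genes, and Sec61b, a subunit of the channel into the ER, was the 1 gene called lower in RA, at -0.53 (adjusted p = 3.89e-09), with 0.01 in WT (adjusted p = 0.893).

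Ung, the uracil-DNA glycosylase that starts base excision repair of uracil in DNA, lay deepest inside the thresholds. It read 10.4 and 9.74 CPM with glucose and 18.5 and 19.7 CPM without it in WT, against 11.5 and 11.5 CPM with glucose and 8.23 and 6.28 CPM without it in RA. The difference was 0.86 in WT and -0.61 in RA, and no libraries of different groups overlapped. Between the starved genotypes, RA minus WT was -1.29 ± 0.104 (SE). Ung had 304 to 1077 reads per library.

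Of 9 other DNA glycosylases, 2 were called higher and 5 lower in WT, where 39.3% and 39.2% of all tested genes were, and 2 higher and 4 lower in RA, where 35.0% and 33.7% were. None was among the 17, and nothing is read from that. Smug1, which also removes uracil, rose in both, by 0.42 in WT (adjusted p = 1.46e-05, limma) and by 0.31 in RA (adjusted p = 0.000476), and its responses differed by -0.12 ± 0.0925 (adjusted p = 0.319). Tdg, which acts on thymine and uracil mispaired with guanine, fell in both (-0.55 in WT, -0.68 in RA), as did Neil3 (-2.24 and -1.68). Ung is also transcribed with DNA replication in many cells, and of 39 cell cycle and replication genes 33 were called lower and 4 higher in WT, while 35 were called lower in RA, against the same shares.

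Rec114, needed for the DNA breaks of meiosis, was near the floor, at 6.02 and 6.35 CPM with glucose and 8.32 and 8.08 CPM without it in WT, against 6.51 and 6.22 CPM with glucose and 4.27 and 4.34 CPM without it in RA. Its differences were 0.36 in WT and -0.47 in RA (SE 0.102 for the difference under starvation), from 210 to 442 reads per library. Of its 1277 exon bases, 344 (26.9%) are shared with Nptn on the opposite strand, and the counting strand is not given in the sources used here, so reads of the 2 genes may be mixed. Nptn, at a mean of 178 CPM, fell in both genotypes, at -0.54 in WT (adjusted p = 2.37e-09) and -0.24 in RA (adjusted p = 5.65e-05). The 2 genes moved in opposite directions in WT and both fell in RA, and a mixing of their reads was not tested.

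Cxxc5, a CXXC zinc finger protein that binds unmethylated CpG and restrains Wnt signalling, read 13.8 and 14.7 CPM with glucose and 21.6 and 22.6 CPM without it in WT, against 13.4 and 13.2 CPM with glucose and 8.23 and 8.26 CPM without it in RA. Normal WT and normal RA stood close together and the starved groups to either side of both. The differences were 0.6 in WT and -0.63 in RA, and -1.32 ± 0.0787 (SE) between the starved genotypes. Of 11 other CXXC proteins tested, 3 were called higher and 5 lower in WT (39.3% and 39.2% of all tested genes), and 1 higher and 6 lower in RA (35.0% and 33.7%). Kdm2a, a histone demethylase, was the one gene of these over the floor with both signs, at 0.04 in WT (adjusted p = 0.382, limma) and -0.06 in RA (adjusted p = 0.264). Tet3, a DNA hydroxylase, had 0.49 in WT (adjusted p = 1.7e-05, limma) and 0.09 in RA (adjusted p = 0.291). Dnmt1, the maintenance methyltransferase, fell in both (-1.25 in WT, -1.07 in RA). Among 34 tested genes of TGF-beta, BMP and Wnt signalling, 23 were called lower and 5 higher in WT and 19 lower and 6 higher in RA, against the same shares.

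Csrnp1, a nuclear protein of the cysteine-serine-rich family, read 25.9 and 26.4 CPM with glucose and 42.3 and 39.4 CPM without it in WT, against 32.5 and 32.8 CPM with glucose and 25.3 and 26.7 CPM without it in RA. Unlike most of the 17, starved RA lay at the level of normal WT, and normal RA was higher than normal WT by 0.31 ± 0.0587 (SE). Its family member Csrnp2 rose in both genotypes, by 1.09 in WT (adjusted p = 2.65e-10, limma) and by 0.55 in RA (adjusted p = 3.06e-06). Csrnp1 lies inside the Cx3cr1 gene body on the same strand and shares no exon bases with it. Cx3cr1, read at a mean of 128 CPM, rose by 0.6 in WT (adjusted p = 1.87e-10) and by 0.12 in RA (adjusted p = 0.00788). Csrnp1 also shares 224 exon bases (6.45%) with an antisense transcript, 1700019L13Rik.

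Mex3d, an RNA-binding protein with KH domains and a RING finger, read 62.0 and 58.9 CPM with glucose and 77.1 and 73.9 CPM without it in WT, against 52.3 and 50.5 CPM with glucose and 34.2 and 31.8 CPM without it in RA. The larger move was in RA, -0.62 against 0.32 in WT, and the 4 groups did not overlap. Of its 3 paralogs, 2 were called lower in RA, where 33.7% of tested genes were. Mex3a read 45.9 and 44.6 CPM with glucose and 46.2 and 46.5 CPM without it in WT, against 46.9 and 43.5 CPM with glucose and 20.4 and 22.9 CPM without it in RA. It fell in RA, at -1.03 ± 0.0605 (SE, adjusted p = 1.26e-10, limma) with 0.03 in WT (adjusted p = 0.621), and its responses differed by -1.06 ± 0.0855 (adjusted p = 2.99e-08). Mex3c rose by 0.15 in WT (adjusted p = 0.00925) and fell in RA, at -0.63 (adjusted p = 2.58e-09), and its responses differed by -0.78 (adjusted p = 5.72e-08). Mex3b rose in both, by 0.9 and 0.85, and its responses differed by -0.05 ± 0.102 (adjusted p = 0.699).

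Rab31, a GTPase of the RAB5 branch that moves cargo between the trans-Golgi network and endosomes, read 60.3 and 65.9 CPM with glucose and 83.8 and 87.3 CPM without it in WT, against 66.0 and 67.9 CPM with glucose and 52.4 and 53.3 CPM without it in RA. All 4 groups stood apart, with normal WT and normal RA nearly touching. Its differences were 0.43 in WT and -0.33 in RA, with an SE of 0.0491 for each genotype difference. Of 5 relatives, 4 were called higher in WT and 3 in RA, where 39.3% and 35.0% of tested genes were. Rab22a, the closest relative by family, rose by 0.91 in WT (adjusted p = 3.3e-12, limma) and 0.4 in RA (adjusted p = 3.05e-07). Rab5a, of early endosomes, rose by 0.53 in WT (adjusted p = 4.04e-09), with 0.06 in RA (adjusted p = 0.205). Of 37 tested genes of membrane trafficking, 26 were called higher and 8 lower in WT, 19 higher and 9 lower in RA, and 22 had a lower response in RA, beside all-gene shares of 39.3% and 39.2% in WT, 35.0% and 33.7% in RA, and 26.1% for a lower response.

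Slco4a1, an organic anion transporter that carries thyroid hormone, read 10.8 and 10 CPM with glucose and 17.4 and 15.2 CPM without it in WT, against 7.59 and 8.29 CPM with glucose and 5.56 and 5.53 CPM without it in RA. RA was lower in normal medium already, with RA minus WT at -0.36 ± 0.0978 (SE), and at -1.4 ± 0.0978 under starvation, the largest gap between the starved genotypes among the 17. Slco3a1, the one of 4 other transporters of the family examined that was over the CPM floor, fell in both genotypes, at -1.93 in WT (adjusted p = 7.92e-14, limma) and -0.96 in RA (adjusted p = 2.05e-09). Tgm4, a secreted transglutaminase best known from the prostate, read 8.78 and 8.12 CPM with glucose and 10.7 and 10.8 CPM without it in WT, against 8.09 and 9.05 CPM with glucose and 6.09 and 5.66 CPM without it in RA. The normal libraries of the genotypes overlapped. Tgm4 shares 830 exon bases (18.2%) with Zdhhc3 on the opposite strand, so reads of these genes may be mixed as well. Zdhhc3 read a mean of 105 CPM and changed by -0.07 in WT (adjusted p = 0.0988, limma) and -0.18 in RA (adjusted p = 0.000676). Tgm2, the tissue transglutaminase, went the other way: it fell in WT, at -0.31 (adjusted p = 0.000145), and rose by 1.15 in RA (adjusted p = 2.67e-11).

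Cep97, which caps the mother centriole with CP110 and holds back the growth of cilia, had the fewest reads, 170 to 412 per library, and the lowest level per length. It read 5.09 and 4.51 CPM with glucose and 7.17 and 7.53 CPM without it in WT, against 5.2 and 5.35 CPM with glucose and 4.66 and 3.51 CPM without it in RA. Starved RA overlapped normal WT, and with DESeq2 on recovered reads it alone of the 17 lost the call in RA. Its partner Ccp110 changed by 0.19 in WT (adjusted p = 0.0546, limma) and -0.13 in RA (adjusted p = 0.218), with a difference between the responses of -0.32 ± 0.125 (SE, adjusted p = 0.0426). Ccnj, a cyclin, read 8.17 and 8.99 CPM with glucose and 11.4 and 10.3 CPM without it in WT, against 7.77 and 8.18 CPM with glucose and 6.19 and 5.45 CPM without it in RA, with the normal libraries overlapping.

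The roles of Dydc2, which has a DPY30-like motif, and Sowahc, an ankyrin repeat protein, are less well known. Dydc2 read 9.02 and 8.38 CPM with glucose and 14 and 13.5 CPM without it in WT, against 8.23 and 7.56 CPM with glucose and 5.6 and 5.37 CPM without it in RA. Sowahc read 7.96 and 7.74 CPM with glucose and 12.9 and 13.4 CPM without it in WT, against 9.56 and 8.22 CPM with glucose and 7.05 and 6.9 CPM without it in RA. In both genes the starved genotypes stood apart from all normal libraries, on opposite sides. Cntnap5b, a cell adhesion protein related to neurexins, read 18.5 and 18.7 CPM with glucose and 27.7 and 27.7 CPM without it in WT, against 17.7 and 15.3 CPM with glucose and 10.8 and 12.3 CPM without it in RA. It aligned to Cntnap5c at 90.9% identity over 1248 bases, so its reads are uncertain, and Cntnap5c, at a mean of 4.68 CPM, changed by 0.4 in WT and 0.2 in RA.

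The 2 pseudogenes are uncertain as well, since their reads could be shared with near-identical copies. Gm20474 read 20.5 and 20.1 CPM with glucose and 27.4 and 26.9 CPM without it in WT, against 18.9 and 15.5 CPM with glucose and 12.6 and 11.8 CPM without it in RA, and 47 genes matched it at 90% identity or more over at least 300 bases. Of these, 2 were over the CPM floor: Asap2 (93.1% over 462 bases), which fell in both genotypes (-0.79 in WT, -0.89 in RA), and 3110053B16Rik (93.5% over 400 bases), at 0.32 in WT and 0.09 in RA. Gm7993, a processed pseudogene, read 38.0 and 39.9 CPM with glucose and 45.6 and 50.9 CPM without it in WT, against 45.1 and 48.4 CPM with glucose and 37.6 and 36.5 CPM without it in RA. Here starved WT and normal RA overlapped, the one gene of the 17 in which starved WT was not above all other libraries. It had 13 such matches, 3 of them over the CPM floor. Gm15645 (94.9% over 448 bases, mean 50.8 CPM) changed by -0.46 in WT and 0.05 in RA, and Gm17709 (94.0% over 938 bases, mean 17.7 CPM) by 0.43 and 0.02. The other was Odc1, ornithine decarboxylase, at 97.7% over 392 bases. Odc1 read 331 and 341 CPM with glucose and 415 and 410.3 CPM without it in WT, against 380.2 and 381 CPM with glucose and 382 and 370.1 CPM without it in RA, a rise of 0.3 in WT (adjusted p = 1.08e-06, limma) beside -0.02 in RA (adjusted p = 0.693). Gm7993 lay on the very edge of the rule, at 0.3 in WT.

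In normal medium the genes went both ways between the genotypes. The median RA minus WT difference was -0.01, beside 0.02 for all genes over the floor, and it ran from -0.36 (Slco4a1) to 0.31 (Csrnp1). In the limma fit 2 genes, Csrnp1 and Gm7993, were called higher in RA, against 6.68% of all tested genes, and 2, Slco4a1 and Mex3d, were called lower, against 2.95%. Of these 4, Csrnp1 alone was called without RA normal replicate 2, without WT normal replicate 1, without the mean-variance trend or with no filter on low values. The libraries of the genotypes overlapped in Rec114, P4hb, Tgm4 and Ccnj and did not in the other 13, where 56.4% of genes over the floor did not overlap. Under starvation the median difference was -0.84, beside -0.03 for all genes over the floor, from -1.4 (Slco4a1) to -0.37 (Gm7993), and all 17 were called lower in RA, against 32.1% of tested genes. A lower starved level in RA is fixed by the rule wherever the normal levels are alike.

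**Figure D3:**
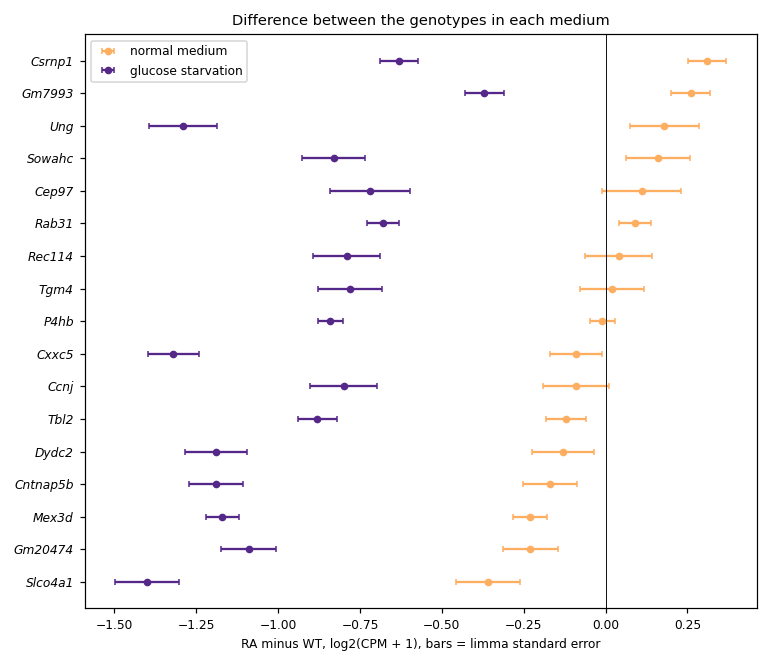
RA minus WT difference in log2(CPM + 1) (horizontal axis) for each of the 17 genes in normal medium and under glucose starvation, with limma standard errors (n = 2 libraries per group). In normal medium the genes lie between -0.36 and 0.31 around 0, and under starvation all lie between -1.4 and -0.37.

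Across the 8 libraries, both starved WT libraries were above the other 6 in 16 of the 17 genes, an order that 32.2% of the genes over the floor had. Both starved RA libraries were below the other 6 in 15, the exceptions being Csrnp1 and Cep97, against 14.3% of genes. Both orders at once were seen in 14, against 2.95%. The choice of genes favours these orders, and nothing is read from them. Levels in CPM per kb of exon, averaged over all libraries, ran from 0.587 (Cep97) to 319 (P4hb), followed below P4hb by Gm7993 (30.9), Gm20474 (20.2), Rab31 (17.6) and Mex3d (16.9).

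The 17 genes lay at the margin of a broad, shared response. Of the genes over the floor, 4185 (34.6%) were at least 0.3 higher in starved WT and 3230 (26.7%) at least 0.3 lower in starved RA. Of the 4185, 2632 were also at least 0.3 higher in starved RA and 1536 were within 0.3 of no change in RA, which leaves the 17. Just inside the thresholds were Ccnj (0.309 in WT, -0.398 in RA), Sowahc (0.678, -0.307) and Gm7993 (0.3, -0.326). Just outside were Zmym1 (0.319, -0.299), Fam60a (0.338, -0.295) and Tpst1 (0.291, -0.496). No gap separates the groups, and 1204 genes over the floor had a positive difference in WT and a negative one in RA of any size. With library totals as the scale in place of the depositors' scaling, 11 of the 17 remained, the losses being Tbl2, Rec114, Tgm4, Mex3d, Ccnj and Gm7993.

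**Figure D4:**
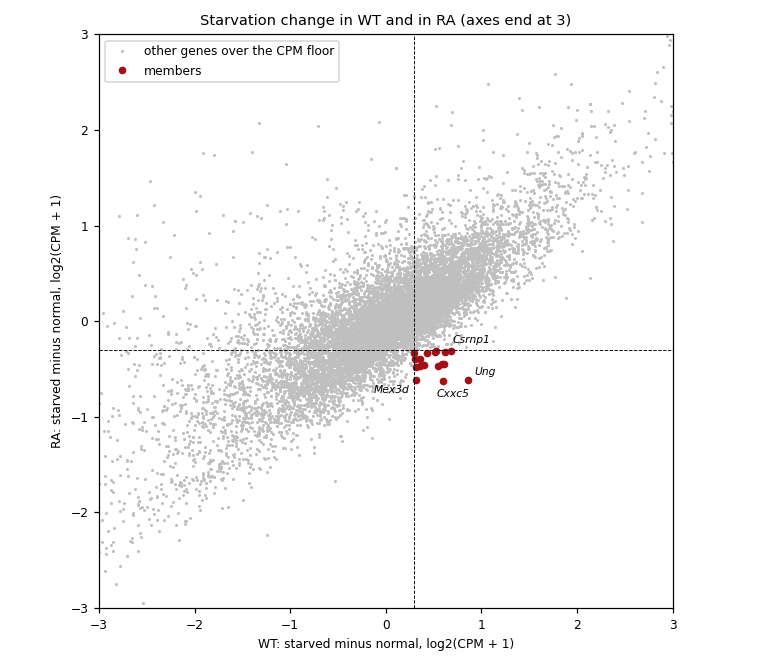
Starved minus normal log2(CPM + 1) in WT (horizontal axis) and in RA (vertical axis) for the genes over the CPM floor that lie within the axes. Dashed lines are the thresholds of 0.3 and -0.3, and the 17 genes (large points) fill the lower right corner at the edge of a cloud that runs from lower left to upper right.

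The same rule applied to the 4 libraries of 1 replicate number, and read in the other 4, gives values that the choice did not use. With 1 library a group there is no test. The 2 libraries of a group may be technical repeats, so agreement between them describes how repeatable the libraries were and nothing more. In the replicate 1 libraries the rule chose 23 genes. Of these, 19 kept both signs in the replicate 2 libraries, where 11.0% of all genes over the floor had both, and 9 passed both thresholds, where 0.298% did. Their median difference was 0.48 in WT and -0.39 in RA where they were chosen, and 0.4 and -0.29 where they were read. In the replicate 2 libraries the rule chose 38 genes, of which 27 kept both signs in the replicate 1 libraries, against 9.81%, and 9 passed both thresholds, against 0.198%. Their medians moved from 0.47 and -0.36 to 0.41 and -0.2. The RA side shrank more than the WT side in both directions. Apart from the CPM floor, passing both thresholds in either reading means being chosen in both, so the 9 are the same by construction. They are Cxxc5, Dydc2, Gm20474, Mex3d, Rab31, Rec114, Slco4a1, Tbl2 and Ung. Of the 17, 12 were among those chosen in replicate 1 and 13 among those chosen in replicate 2.

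**Figure D5:**
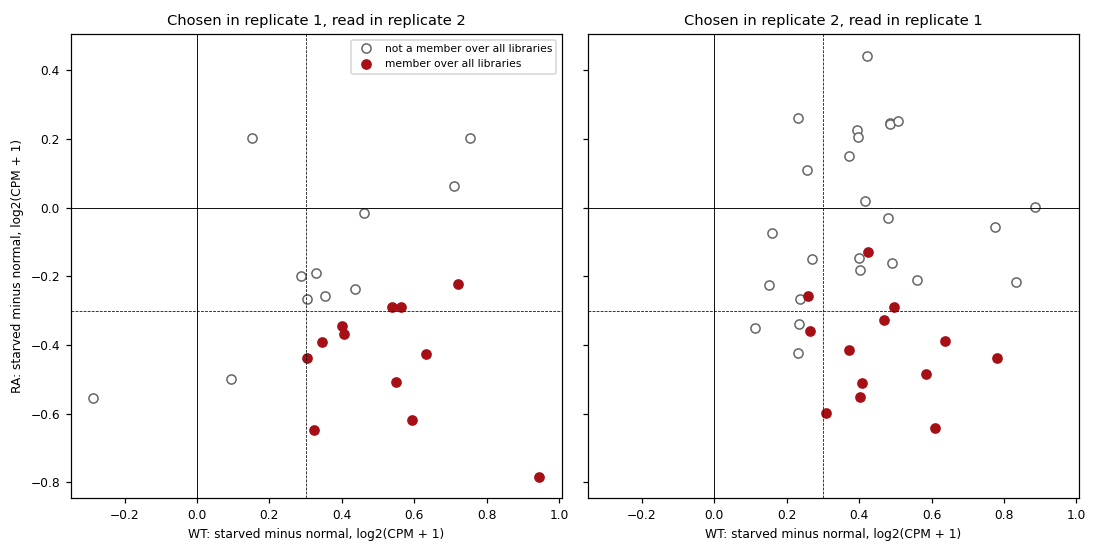
Genes chosen by the rule in the libraries of 1 replicate number (23 on the left, 38 on the right), plotted by their starved minus normal log2(CPM + 1) in WT (horizontal axis) and RA (vertical axis) in the libraries of the other number. Solid lines mark 0 and dashed lines the thresholds, and 19 of 23 and 27 of 38 lie in the lower right quadrant.

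The rule did not use gene type, length, base composition or position. The values set beside those of the 17 in this paragraph are over the 11767 genes over the floor that had an annotation. Of the 17, 15 (88.2%) were protein coding, against 87.5%. Median exon length was 3813 bases against 4259. Median GC content was 50.1% against 50%, taken over all transcripts of a gene, so bases shared by transcripts count more than once. The genes lay on 12 chromosomes, with 3 each on chromosomes 5 and 9. Abundance entered the rule, through the floor and the group means, and is given as a description: the median was 14.5 CPM against 36.6, and 6 of the 17 (35.3%) were under 10 CPM against 13% of genes.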

How the data were processed

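RNA-seq of 8 libraries was analysed. As far as the study's methods and the submitters' processing notes say, the authors aligned paired reads to mm9 with TopHat2 2.0.9, and bedtools and edgeR are named. The read counter, annotation, strand and filters are not given in the sources used here. The deposited table holds signal values for 49492 genes. Every nonzero value was a whole multiple of what 1 read is worth (tolerance 0.01 reads plus a small share of the value), so read counts could be recovered. The columns summed to 965845 to 1029723, while plain CPM would give every column the same sum. The values were therefore taken as CPM of a scaled library size. Columns marked minus were taken as normal medium and plus as glucose starvation. Nothing else in the table was used.

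Values were analysed as log2(CPM + 1). limma 3.58.1 was fitted with a mean per group over all 8 libraries, a mean-variance trend and Benjamini-Hochberg adjustment, on 16232 genes at 1 CPM or more in at least 2 libraries, 2-sided, called at an adjusted p of 0.05. The analysis was planned for plain CPM, and the same test was used. edgeR 4.0.16 and DESeq2 1.42.0 were run on the recovered reads, which may count both mates of a pair, as alternatives, in R 4.3.3. The limma step was also run on simulated counts. In these, genes changed only in starved RA, a simpler setting than these data, and nothing is read from that run. Gene positions are from GENCODE M21 (GRCm38) and were joined by symbol, start-site windows are from RefSeq (GRCm38.p6), and near-identical copies were sought with BLAST 2.17.0. No mm9 coordinate is given. The genes, pathway lists and alternatives were chosen with earlier results of these data known, and the families, neighbours and named paralogs after the 17 genes were known. All 17 genes are named; beyond the 17, the 3 genes just outside the thresholds and members of their families, lists and overlaps are named, picked after their values were seen as those nearest to the pattern or opposite to it.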

Additional observations from a re-analysis of the deposited data

Results flagged for a closer look

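All 17 genes were higher in starved than in normal medium in every pairing of WT libraries and lower in every pairing of RA libraries, so that the samples of the 2 genotypes moved in opposite directions. This difference was not tested, because the genes were chosen for it. How many of all genes were separated in this way was not counted. The choice of genes favours such an order, so nothing is read from the 17.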

How the results depend on the processing

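The number of genes chosen depended on the scale and the thresholds. It was 17 as reported, 11 with library totals as the scale, 28 after quantile normalization (15 of the 17 among them), 96 with a threshold of 0.2, 2 with 0.5, 32 with a mean CPM of at least 1, 37 with no CPM filter and 11 with at least 10. Leaving out 1 library gave 17 to 27, with 27 without RA normal replicate 1. Over 13 settings of pseudocount, scaling and left-out library, 7 genes stayed inside the rule in all (Ung, Cxxc5, Cntnap5b, Dydc2, Slco4a1, Gm20474 and Rab31). The median WT difference was 0.44 with library totals and 0.5 to 0.52 with 1 library left out. The median RA difference was -0.48 and -0.49 with pseudocounts of 0.5 and 0.1, and -0.46 to -0.38 with 1 library left out. The median RA minus WT difference in normal medium was -0.06 with library totals, -0.09 after quantile normalization and -0.06 to 0.01 with 1 library left out, and under starvation -0.91 with a pseudocount of 0.1, -0.97 after quantile normalization and -0.89 to -0.83 with 1 library left out. In normal medium 4 genes were called, but 1, Csrnp1, without the mean-variance trend and with no filter on low values, and 1 to 4 with 1 library left out (1 without RA normal replicate 2 or WT normal replicate 1). With 1 library left out, 16 to 17 were called in WT, 15 to 17 in RA, and all 17 under starvation and for the difference of the responses. The count of genes that kept both signs became 39 of 46 chosen in replicate 1 after quantile normalization and 15 of 24 chosen in replicate 2 with library totals, both added after seeing the data. Over 204 refitted values of the single genes' RA minus WT response, 0 changed sign, with a range of -1.64 to -0.55. The rule fixed this sign, and it favours the calls in every comparison but normal medium, so nothing is read from them. Library totals moved the median WT difference of all genes by -0.071. Same-numbered replicates correlated between groups at -0.0076 to 0.1573. With 2 libraries per group this cannot decide whether the numbers pair the samples. A fit with the replicate block called 4 genes in normal medium and 17 in each other comparison. A fit of only the groups compared gives no difference of responses. In each left-out fit the lone library of its group is assumed to vary like the other groups. The causes were not tested. Depth limits Cep97 and Rec114 most, with fewest reads of 170 and 210.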

Other observations

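The nearest genes over the CPM floor on either side of the 17, with 3 that overlap one of them, were 37 genes. None of them was among the 17, which are 0.141% of the genes over the floor, and nothing is read from that. Of these 37, 14 were at least 0.3 higher in starved WT and 11 at least 0.3 lower in starved RA, against 34.6% and 26.7% of all genes over the floor, with median differences of -0.04 and -0.13. One was chosen for mention after its values were seen. Alkbh2, a DNA repair enzyme that reverses alkylation damage, starts 2167 bases from Ung on the opposite strand. It read 4.28 and 3.51 CPM with glucose and 9.16 and 9.72 CPM without it in WT, against 4.51 and 4.05 CPM with glucose and 5.48 and 4.5 CPM without it in RA. It rose by 1.1 ± 0.121 (SE, adjusted p = 2.87e-07, limma) in WT, with 0.18 in RA (adjusted p = 0.199), and the responses differed by -0.92 ± 0.172 (adjusted p = 0.0003).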
